A study of Mus musculus with 55 samples.

Results

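The genes described here are those whose symbol starts with Psma to Psmg followed by a number, the naming system of the mouse proteasome. The rule found 42 of the 9911 genes listed for the CCNA-GFP line and 44 of the 10237 listed for the CTCF-AID line. Psmb9 and Psme1 were listed for CTCF-AID only. Psmc3ip matches the rule by name alone and encodes a meiotic recombination factor, so 41 and 43 of the members are proteasome genes. Psmb8, Psmb11, Psmd7, Psmd9, Psmg3, Psme2b and Psme3ip1 were not analysed here. No member was listed at 0 in any library.

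The study followed how transcription restarts after mitosis in mouse E14Tg2a embryonic stem cells, which derive from the 129/Ola strain. Pre-mRNA, the intron-containing transcript that reports recent transcription, was measured by ribosomal-RNA-depleted stranded RNA-seq in 55 libraries and deposited as length-scaled relative abundances (TPM). Cells were held with 10 µM RO-3306, a CDK1 inhibitor, for 4 h, moved into 50 ng/ml nocodazole, a microtubule poison, for 4 h, shaken off as mitotic cells and released. The CCNA-GFP line, which carries a cyclin A reporter, gave 19 libraries: 3 asynchronous, 3 mitotic, 2 each at 20, 30, 40, 60, 90 and 120 min after release, and 1 at 50 min. The CTCF-AID line, a single clone in which the architectural protein CTCF carries an auxin-inducible degron, gave 18 libraries without and 18 with 0.5 mM of the auxin IAA. Each of those arms had 3 asynchronous and 3 mitotic libraries and 2 each at 20, 40, 50, 60, 90 and 120 min. IAA was present during the last 2 h of the nocodazole block and through the release, and for 4 h in asynchronous cells. No IAA-treated line without the degron was part of the series, so the loss of CTCF and IAA itself cannot be told apart. Because auxin acts on the CTCF protein, the level of Ctcf pre-mRNA does not check the depletion, which the study showed by Western blot in interphase and mitosis.

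The proteasome degrades proteins tagged with ubiquitin. Its barrel-shaped core holds outer alpha rings and inner beta rings with the proteolytic sites, and a regulatory particle made of a base and a lid recognises, deubiquitinates, unfolds and threads substrates into the core. Dividing cells depend on it to remove cyclins and securin at the end of mitosis, and embryonic stem cells are known for high proteasome activity.

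The summed TPM of all listed genes ranged from 13747 to 42576 over the CCNA-GFP libraries and from 17702 to 43370 over the CTCF-AID libraries. In CCNA-GFP the summed level was 15242 ± 1803 (SD, n = 3) in mitosis. The files give TPM and no read counts, so the number of reads behind each library is unknown; the values are whole multiples of a per-library step of 0.0184 to 0.0381 TPM, which bounds the precision of low members. Of 6 embryonic stem cell markers, 5 were listed (Pou5f1, Nanog, Klf4, Esrrb and Zfp42), with summed levels of 20.5 to 81.1 TPM in CCNA-GFP and 31.4 to 103 TPM in CTCF-AID, while none of 4 primitive endoderm markers was listed. Of 3 trophectoderm markers 2 were listed in each line, with sums of at most 2.44 TPM in CCNA-GFP and 5.26 TPM in CTCF-AID. Of 4 fibroblast markers none was listed in CCNA-GFP and 2, Col1a1 and Thy1, in CTCF-AID, with sums of at most 3.42 TPM. Their part in the results was not tested. In bulk samples, fewer cells of a type and less RNA per cell cannot be told apart.

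Proteasome pre-mRNA rose broadly in the first hour after release. The sum over the 42 members in CCNA-GFP was 75.7 ± 12.2 TPM (SD, n = 3) in mitosis, and 169 and 248 TPM in the 2 libraries at 60 min. Within replicates the sum was 2.60-fold and 3.38-fold higher at 60 min. The members' share of the summed TPM of all listed genes went from 0.495% ± 0.022 (SD, n = 3) to 0.563% ± 0.026 (SD, n = 2), a ratio of 1.15 and 1.17 within replicates. When every library was set to the same total, the median change of all genes in CCNA-GFP at 60 min moved from 0.79 to 0.02 on the log2 scale. On that scale 21 members (36.4% of all genes) were called higher and 9 (33.3%) lower at 60 min, the latter being Psma8, Psmd1, Psmd11, Psmd14, Psmd4, Psme4, Psmf1, Psmg2 and Psmg4.

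**Figure D1:**
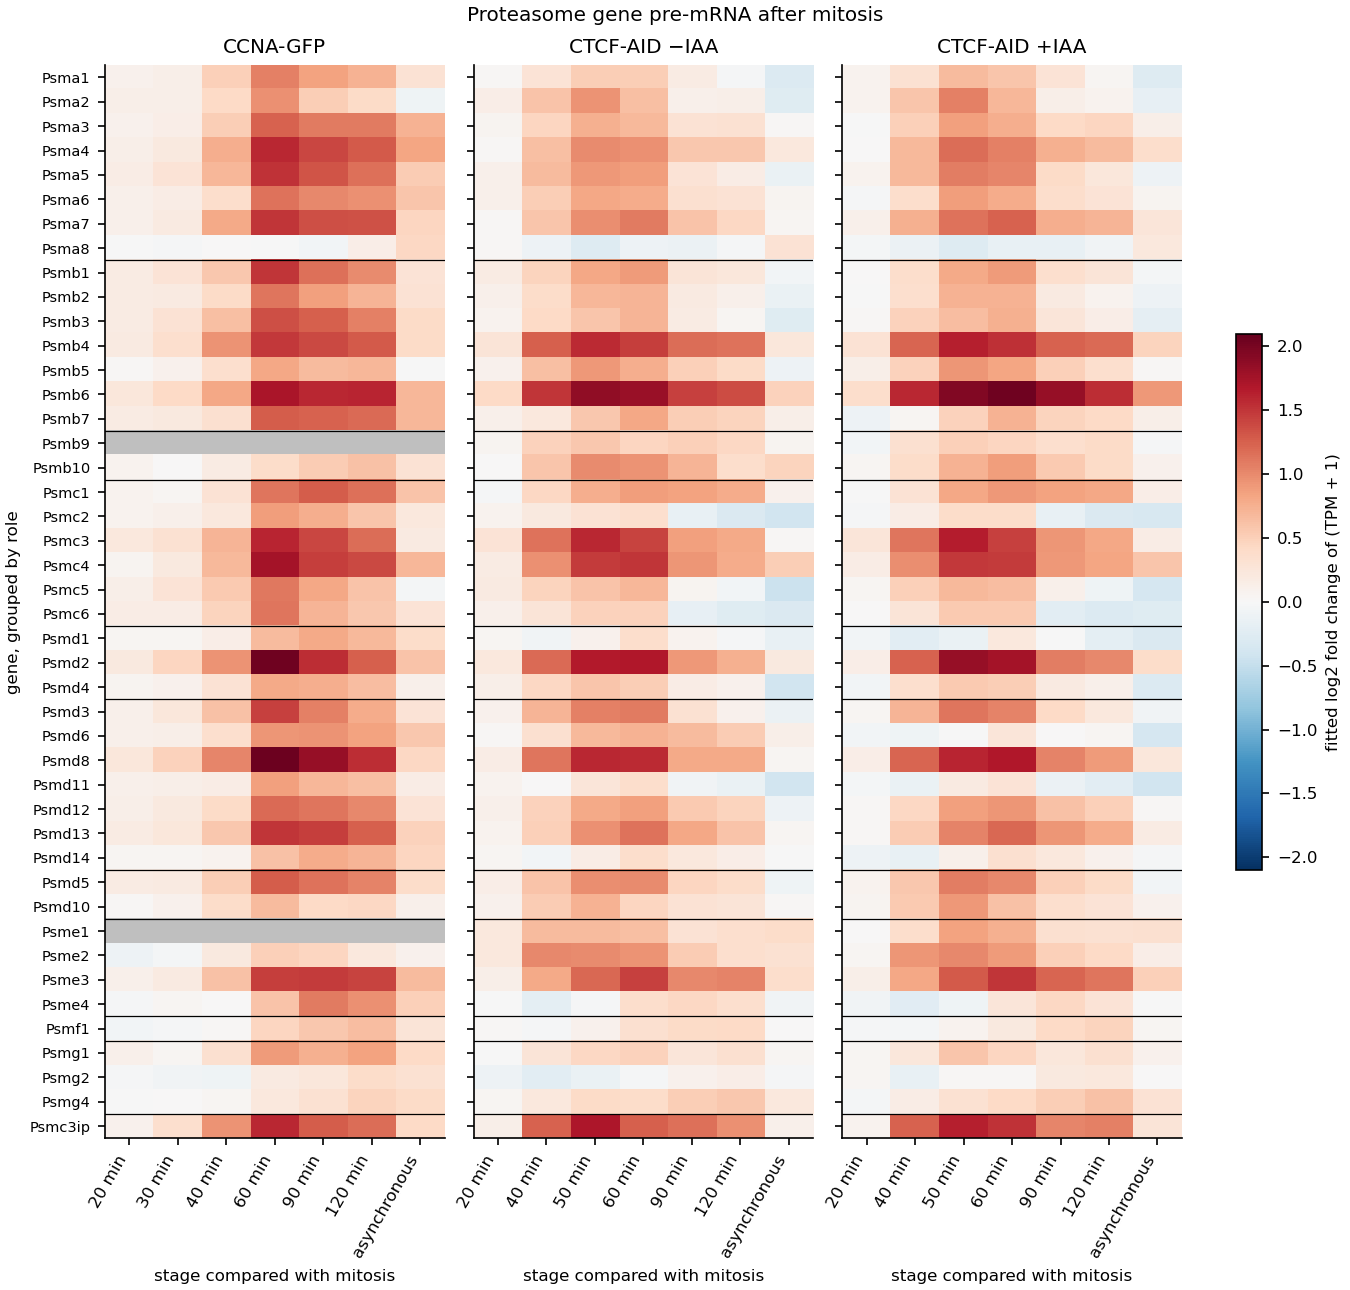
Fitted log2 fold change of (TPM + 1) from mitosis for each member (rows, grouped by role) at each stage (columns) in CCNA-GFP and in both arms of CTCF-AID; red is higher and blue lower than in mitosis, and grey marks genes not listed for that line. Most rows are red from 40 min, with the highest CCNA-GFP values at 60 min for Psmd8 (2.07) and Psmd2 (2.05), while Psma8 stays pale; with every library set to the same total, 9 of the 42 CCNA-GFP rows are called lower at 60 min.

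The start of the rise was timed against mitosis with limma on log2(TPM + 1), with an adjusted p under 0.05 as the threshold. At 20 min in CCNA-GFP limma called 0 of 42 members and 0% of all genes, with 0 members at an unadjusted p under 0.05. At 30 min limma called 0 members higher against 0.303% of all genes, with 9 members at an unadjusted p under 0.05. At 40 min 29 of 42 were called higher against 49.3% of all genes, and none lower. Without replicate 1 the count at 40 min was 15 (26.4% of all genes), and without the replicate block 12 (23.8%). With every library set to the same total, 12 were higher (23.7% of all genes) and 10 lower (31.3%). The median member change at 40 min was 0.42 against 0.26 over all genes tested. Psmd8, a lid subunit, Psmb4, a core beta subunit, and Psmd2 had the largest changes at that time, at 1.03, 0.95 and 0.94.

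At 60 min 40 of 42 members were higher than in mitosis against 88.3% of all genes. The 40 include Psmb10, Psmd10 and Psme2, which were listed only through their levels after release. Psma8 and Psmg2 did not pass. The median member change was 1.13 against 0.79 over all genes, and 32 of 42 members lay above the median of all genes. At 90 min 41 were called higher, against 89.1% of all genes, and at 120 min again 41, against 90.2%. The exception at both times was Psma8. In asynchronous cells 34 were higher than in mitosis, against 70.4% of all genes, with medians of 0.40 for members and 0.33 for all genes. Without replicate 3 the asynchronous count was 20 (47% of all genes), and without the replicate block 18 (46.7%). With equal totals 19 members were higher (31.8% of all genes) and 9 lower (26.2%) at 90 min. At 120 min 20 were then higher (28.7%) and 11 lower (23.5%), and in asynchronous cells 8 were higher (24.8%) and 11 lower (20.3%), where the member median was -0.0016 against 0.027 over all genes.

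Of the core alpha ring, which gates entry into the barrel, 7 of 8 members rose by 60 min, with a group median of 1.19. This and the counts of the other role groups at 60 min stand beside the 88.3% of all genes that rose. Psma4 rose the most, by 1.58 (SE 0.14, adjusted p = 1.7e-09). Psma8, the alpha subunit of germ-cell proteasomes, did not pass at 60 min, with a change of -0.00 (SE 0.10). Its mitotic levels were 0.77, 0.30 and 0.96 TPM in replicates 1 to 3, and its levels at 60 min were 0.72 and 0.25 TPM in replicates 1 and 2. Replicate 2 was the lowest library of Psma8 at every stage it covered, so the groups overlapped. Its asynchronous level of 1.33 ± 0.85 TPM (SD, n = 3) was above that at 60 min, and it was the single member called lower at 60 min than in asynchronous cells in CCNA-GFP, against 8.6% of all genes.

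All 7 constitutive beta subunits rose by 60 min, with a median of 1.35. They include the 3 catalytic subunits Psmb6, Psmb7 and Psmb5. Psmb6, the caspase-like subunit, measured 1.05, 1.03 and 1.21 TPM in mitosis and 6.28 and 4.91 TPM at 60 min, with no overlap. Its change was 1.72 (SE 0.14, adjusted p = 7.7e-10), the largest of the ring. Psmb7, the trypsin-like subunit, measured 2.02, 2.09 and 2.73 TPM in mitosis and 8.07 and 4.84 TPM at 60 min, and rose by 1.28. Psmb5, the chymotrypsin-like subunit and target of bortezomib, had the smallest rise of the ring on the log2(TPM + 1) scale, 0.81 (SE 0.11, adjusted p = 1.2e-06). That scale shrinks changes at low levels, and Psmb5 had the lowest mitotic levels of the ring. Its rank is therefore not one of TPM ratios. With equal totals the change of Psmb5 was 0.08 and was not called. Its levels were 0.63, 0.80 and 0.56 TPM in mitosis and 2.28 and 1.52 TPM at 60 min. Its asynchronous libraries, at 0.49, 0.65 and 0.81 TPM, overlapped the mitotic ones.

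The stretches just before the RefSeq start sites of Psmb5 and Psmb6 are shown because both hold the antioxidant response element core TGACNNNGC, the site read by the factors Nfe2l1 and Nfe2l2 that are known to drive proteasome genes. Capitals mark the match, sequences are from RefSeq on GRCm38.p6 and run 5′ to 3′ on the gene's strand. The Psmb5 stretch lies on the minus strand at chr14:54618023-54618082 with its match beginning 47 bases before the start, and the Psmb6 stretch on the plus strand at chr11:70525297-70525356 with its match beginning 9 bases before it.
Psmb5: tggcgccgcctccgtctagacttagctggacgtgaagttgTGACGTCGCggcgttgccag
Psmb6: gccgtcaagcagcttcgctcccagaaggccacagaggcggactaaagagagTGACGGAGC
Promoter windows of 250 bases before to 50 after the start were matched for 37 of the 44 members. Searched on both strands, TGACNNNGC was present in 5 of the 37 (Psmb5, Psmb6, Psmc6, Psmd12 and Psme4), or 13.5%, against 3781 of all 27025 genes with a window.

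The immunoproteasome subunits replace catalytic subunits in cells exposed to interferon. In CCNA-GFP Psmb10, the inducible trypsin-like subunit, measured 0.14, 0.10 and 0.31 TPM in mitosis and 0.38 and 0.74 TPM at 60 min. It rose by 0.39 (SE 0.10, adjusted p = 0.00102) on the log2(TPM + 1) scale, and without replicate 2 the rise was 0.16 and was not called. In asynchronous CCNA-GFP cells it lay below the mean level that lists a gene. It was thus listed through its levels after release, and its rise there is no independent result. In CTCF-AID without IAA its change at 60 min was 0.94. Psmb9, another immunoproteasome subunit, measured 0.13, 0.15 and 0.05 TPM in mitosis and 0.56 and 0.49 TPM at 60 min in CTCF-AID without IAA. Psmb9 too was listed only through its levels after release.

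All 6 ATPases of the base, the ring that unfolds substrates, rose in CCNA-GFP by 60 min, with a median of 1.12. With equal totals Psmc2 and Psmc6 lay below 0 in CCNA-GFP without a call, and both were called lower in CTCF-AID without IAA. Psmc4 led the group. It measured 0.73, 0.76 and 1.10 TPM in mitosis and 6.05 and 4.00 TPM at 60 min, a rise of 1.75 (SE 0.13, adjusted p = 2.6e-10). Psmc2 had the smallest rise, 0.88. Of the 3 other base subunits, Psmd2, a scaffold that docks ubiquitin receptors and shuttle factors, measured 1.08, 0.93 and 1.21 TPM in mitosis and 7.76 and 6.33 TPM at 60 min. Its rise was 2.05 (SE 0.14, adjusted p = 2.4e-10). Psmd1, the other large scaffold of the base, rose by 0.67, and the ubiquitin receptor Psmd4 by 0.79.

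The lid removes ubiquitin chains and clamps the regulatory particle together. All 7 listed lid subunits rose by 60 min, with a median of 1.19. With equal totals Psmd14 (-0.52) and Psmd11 were called lower, and Psmd6 lay at -0.07 and was not called. Psmd8 measured 1.36, 0.96 and 1.74 TPM in mitosis and 9.40 and 6.75 TPM at 60 min, a rise of 2.07 (SE 0.14, adjusted p = 1.8e-10) and the largest of all members. Psmd14, the deubiquitinase of the lid, had the smallest rise of the group at 0.61 (SE 0.14, adjusted p = 4.4e-04). Without replicate 1 the rise of Psmd14 was 0.31 and was not called.

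The stretch before the start of Psmd2 is shown for its rise and for its match to CCGGAAG, a core site of ETS-family factors. It lies on the plus strand at chr16:20651592-20651651, with the match, in capitals, on the minus strand and beginning 26 bases before the start.
Psmd2: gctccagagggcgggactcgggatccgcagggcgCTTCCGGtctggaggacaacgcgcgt
CCGGAAG, searched on both strands, was present in 14 of the 37 member windows, or 37.8%, against 9.93% of all genes with a window. Those 27025 genes are more than were listed in these data. The share over listed genes alone is not given, so whether the members differ from these was not tested. The 14 were Psma6, Psmc1, Psmc2, Psmc3ip, Psmc6, Psmd11, Psmd12, Psmd13, Psmd2, Psmd4, Psmd6, Psme3, Psme4 and Psmg1. The list holds both Psmd2, with one of the largest rises, and Psme4, with a smaller one of 0.59.

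Both listed chaperones of base assembly, Psmd5 and Psmd10, rose, by 1.28 and 0.66 on the log2(TPM + 1) scale. That scale shrinks the changes of low genes, so their order is not one of TPM ratios. Psmd10 measured 0.17, 0.17 and 0.20 TPM in mitosis and 0.95 and 0.74 TPM at 60 min. Psmd5 measured 1.46, 1.16 and 1.86 TPM in mitosis and 5.71 and 3.46 TPM at 60 min. Of the alternative activators, which cap the core in place of the regulatory particle, Psme3 rose by 1.45 and Psme2 by 0.49 on the same scale. Psme2 was low too, at 0.21, 0.23 and 0.20 TPM in mitosis. Psmd10 and Psme2 were listed only through their levels after release. Psme4, the activator linked to histone turnover, measured 3.83, 3.79 and 4.67 TPM in mitosis, 7.61 and 5.16 TPM at 60 min and 9.48 and 10.9 TPM at 90 min. It rose by 0.59 (SE 0.14, adjusted p = 4.3e-04) at 60 min, and without replicate 1 this was 0.33 and not called. Psmf1, an inhibitor of the core, rose by 0.45, and without replicate 1 by 0.29, not called.

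The chaperones of core assembly had a median of 0.22 at 60 min in CCNA-GFP and 0.38 in CTCF-AID without IAA. With equal totals Psmg2 and Psmg4 were called lower in both lines. Psmg1 then lay below 0 in CCNA-GFP without a call, and was called lower in CTCF-AID without IAA. Psmg1 rose by 0.89 and Psmg4 by 0.22, the latter not called without replicate 1, when its change was 0.17. Psmg2, the partner of Psmg1, measured 1.74, 1.33 and 1.97 TPM in mitosis and 2.21 and 1.52 TPM at 60 min. Its change of 0.19 (SE 0.11, adjusted p = 0.102) did not pass and the groups overlapped. The non-proteasome gene Psmc3ip rose by 1.58, from 0.94, 0.56 and 0.79 TPM in mitosis to 4.41 and 3.64 TPM at 60 min.

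TPM is scaled by transcript length, so levels were compared between genes on that scale. In asynchronous CCNA-GFP cells the highest pre-mRNA levels were those of Psme4, Psmd14 and Psmd11, with means of 6.21, 5.27 and 4.85 TPM. The lowest were Psmd10 at 0.27 ± 0.06 TPM, Psme2 at 0.30 ± 0.08 TPM and Psmb10 at 0.45 ± 0.09 TPM (SD, n = 3). The ranges of Psmd10 and Psme2 overlapped, so their order is within the spread. The highest members are long genes and the lowest short ones: over the 42 members, mean level over all libraries and gene length had a Pearson r of 0.30 on log scales, against -0.091 over all 9900 genes with a length.

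After the peak, pre-mRNA levels fell back for part of the members. In CCNA-GFP 16 of 42 members were lower at 120 than at 60 min, against 28.5% of all genes. Psmd2 fell by 0.79 and Psmd3, a lid subunit, by 0.65. Without replicate 1 the count was 1 (6.37% of all genes), without the replicate block 2 (12.1%), with each library divided by its step 3 (13.9%) and with equal totals 10 (21.7%). Psme4 alone was called higher, by 0.38, against 9.6% of all genes. In CTCF-AID without IAA 33 of 44 were lower at 120 than at 60 min, against 53.1% of all genes, with a median of -0.44 against -0.27 over all genes, and with equal totals 21 (26.5% of all genes). At 60 min, levels exceeded those of asynchronous cells for 35 of 42 members in CCNA-GFP (67% of all genes) and for 41 of 44 in CTCF-AID without IAA (75.2% of all genes). With equal totals these counts were 21 (35% of all genes) and 26 (37.5%). Psma8 was again the single member lower at 60 min in CTCF-AID, against 7.06% of all genes.

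The stage of the highest CCNA-GFP level depended on which replicates entered. In replicate 1, which covers every CCNA-GFP stage but 50 min, the highest level fell at 60 min for 35 of 42 members (66.5% of all genes); 2 members peaked at 90 min, 4 at 120 min and 1 in asynchronous cells, a count added after the data were seen. By stage means, which at 60 and 90 min rest on different replicate pairs, it fell at 90 min for 19 (37.1% of all genes), at 50 min, a single library, for 12 (21.7%) and at 60 min for 8 (23.0%). In CTCF-AID without IAA the highest mean was at 50 min for 32 of 44 members, or 72.7%, against 48.1% of all genes. The count was also 32 with IAA, against 51.2% of all genes. In replicate 1 alone it was 23 without IAA (36.7% of all genes) and 28 with IAA (47.3%).

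The CTCF-AID line without IAA, measured and scaled separately, also rose after release. At 20 min limma called 0 of 44 members and 0% of all genes, with 3 members at an unadjusted p under 0.05. At 40 min 36 were higher (63.3% of all genes) and 1, Psmg2, was lower (3.21%). Without the replicate block 22 were higher (43.5%) and none lower, and with equal totals 19 were higher (33.3%) and 13 lower (36.7%). At 50 min 38 were higher (79.1%) and 1, Psma8, lower (4.56%), and with equal totals 22 (40.7%) and 17 (33.6%). At 60 min 42 were higher (84.8%) and none lower, with medians of 0.75 for members and 0.63 for all genes. The 42 include Psmb9 and Psmd10, which were listed only through their levels after release. Set to the same total, 18 members were higher (39.4%) and 16 lower (31.1%) at 60 min, with a median of all genes of 0.06.

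Later stages of CTCF-AID without IAA lay closer to mitosis. At 90 min 33 members were higher (74.8% of all genes), and 21 without replicate 3 (50.4%). With equal totals 13 were higher (34.5%) and 18 lower (25.6%). At 120 min 28 were higher (69.6%) and 2 lower (3.15%), the ATPase genes Psmc2, at -0.30 (SE 0.09, adjusted p = 0.00388), and Psmc6, at -0.25 (SE 0.10, adjusted p = 0.0293). Without the replicate block the number higher at 120 min was 16 (42.3%), with Psmc2 as the 1 member lower, and with equal totals 13 (32% of all genes), with 17 lower (25.9%). Without replicate 3 Psmc2 was called lower and Psmc6 was not. Psmc6 measured 5.74, 4.91 and 6.24 TPM in mitosis and 4.06 and 4.50 TPM at 120 min. In asynchronous cells 8 were higher (34.3% of all genes) and 8 lower (5.25%). Without replicate 3 the number higher was 5 (17.3% of all genes), without the replicate block 4 (11.6%), with 2 lower, and with each library divided by its step 22 (66%), with none lower. With equal totals 7 were higher (27.2%) and 20 lower (21.4%). The median member change there was 0.03, against 0.12 over all genes.

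Psmb6 had the largest rise at 60 min in CTCF-AID without IAA, 1.82 (SE 0.13, adjusted p = 3.0e-11), from 1.83, 1.49 and 1.81 TPM in mitosis to 7.87 and 8.23 TPM. Psmd2 followed at 1.68 and Psmd8 at 1.56. Across the 42 shared members, Pearson's r between the lines' changes was 0.54 (20 min), 0.83 (40 min) and 0.84 (60 min) after release, with 0.57 for asynchronous cells, a description over genes that share libraries within each line. The change was larger in CCNA-GFP for 20 of the 42 at 20 min, 22 at 40 min, 38 at 60 min and 40 in asynchronous cells. The difference between the lines was not tested, since their tables were scaled separately.

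**Figure D2:**
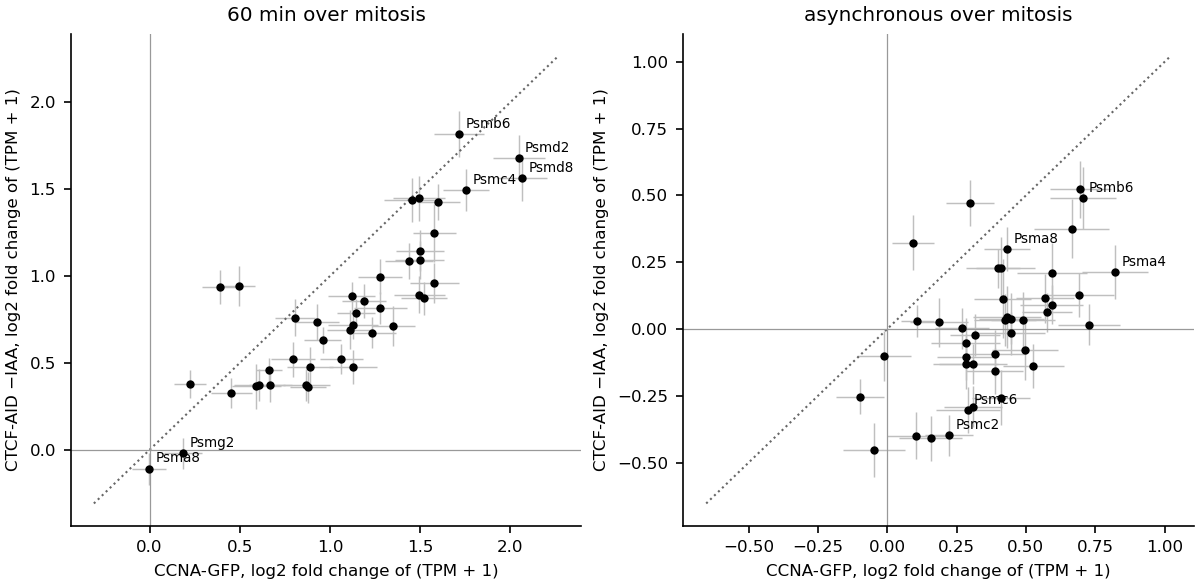
Fitted log2 fold change of (TPM + 1) over mitosis in CCNA-GFP (horizontal axis) and in CTCF-AID without IAA (vertical axis) for the 42 members listed in both, at 60 min (left) and in asynchronous cells (right); bars are SE and the dotted line marks equal values. At 60 min 38 points lie below the line, Psmb6 (1.72 and 1.82) lies on the other side of it, and 40 of 42 points lie below it for asynchronous cells; at 60 min with every library set to the same total, 9 members are called lower in CCNA-GFP and 16 in CTCF-AID. The medians of all genes in CCNA-GFP and CTCF-AID are 0.79 and 0.63 at 60 min and 0.33 and 0.12 in asynchronous cells.

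Long member genes changed less early on. Pearson's r between log10 gene length and the change at 40 min was -0.52 over 42 members in CCNA-GFP and -0.68 over 44 in CTCF-AID without IAA, a description across genes measured in the same libraries. At 60 min r was -0.30 and -0.51. In CCNA-GFP at 40 min, members under 10 kb had a median within-replicate change of 0.60 (all genes of that length 0.48), those of 10 to 30 kb 0.50 (0.31) and those over 30 kb 0.13 (0.11). In CTCF-AID without IAA the medians were 0.61 (0.66), 0.43 (0.40) and -0.0094 (0.12). The same order of medians thus held over all listed genes. Psme4 spans 108636 bp, Psmd14 88683 bp and Psmd1 74765 bp, and none of the 3 was called at 40 min in CCNA-GFP. Psmd8 spans 6514 bp. Psma2 and Psmd1 share same-strand sequence with the coding genes AW209491 and Gm21972, over 8943 and 5515 bp, so their values are uncertain.

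**Figure D3:**
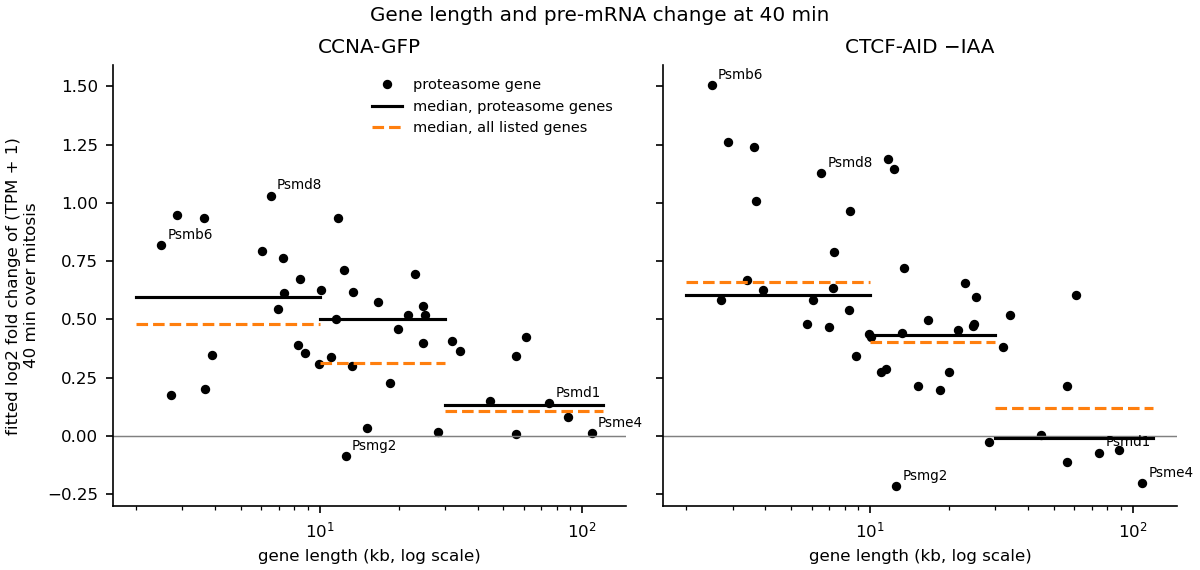
Fitted log2 fold change of (TPM + 1) at 40 min over mitosis against gene length (kb, log scale) for the members in CCNA-GFP and CTCF-AID without IAA; solid lines are medians of the within-replicate changes of the members and dashed lines those of all listed genes, in bins under 10 kb, 10 to 30 kb and over 30 kb. In CCNA-GFP the member medians are 0.60, 0.50 and 0.13.

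On the deposited scale most members had similar CCNA-GFP profiles. With equal totals they split at 60 min, with 21 called higher (36.4% of all genes) and 9 lower (33.3%). Profile correlations with equal totals and in CTCF-AID are not given here. Over the 9 CCNA-GFP stage means, 32 of the 41 proteasome genes correlated above 0.9 with the mean profile of the proteasome genes (78.0%, against 49.7% of all genes), a description over stages that share libraries, and each member is part of that mean. Outside the family the profiles most like the mean were those of Supt5, Tmx3, Safb, Hnrnpf and Cdc7, each with r of 0.998 or 0.999 over 9 stages.

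Genes that act with the proteasome were taken from a list of ubiquitin suppliers, shuttle factors, proteasome-bound enzymes and transcriptional activators, of which 22 were listed. In CCNA-GFP 15 were higher at 40 min (49.3% of all genes) and 21 at 60 min (88.3%), with none lower. Nfe2l2, the stress-responsive activator, rose by 1.90 at 60 min. The smallest changes were those of Usp14, a proteasome-bound deubiquitinase, at 0.73, Nploc4, a cofactor of the segregase VCP, at 0.73 and the ligase gene Ube3c, at 0.14 and not called. Nfe2l1, which drives the recovery of proteasome genes after inhibition, rose by 1.69 and Pomp, which helps assemble the core, by 1.39. In CTCF-AID without IAA 21 of 22 were higher at 60 min (84.8% of all genes).

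The CTCF-AID arm with IAA gave a similar time course against its own mitotic cells. At 20 min limma called 0 of 44 members and 0% of all genes, with 3 members at an unadjusted p under 0.05. The number higher was 32 at 40 min (58.7% of all genes), 36 at 50 min (78.2% of genes), 41 at 60 min (82.2% of genes), 33 at 90 min (73.8% of genes), 30 at 120 min (68.2% of genes) and 10 in asynchronous cells (40.9%). Without replicate 2 the count at 120 min was 17 (41.5%), and without replicate 3 the asynchronous count was 6 (26.9%). Without the replicate block 21 were higher at 40 min (40%) and 5 in asynchronous cells (17.3%). With equal totals the members higher and lower numbered 17 and 17 at 40 min (33.2% and 38.6% of all genes), 22 and 16 at 50 min (41% and 35.5%), 20 and 16 at 60 min (40.7% and 33.2%), 16 and 17 at 90 min (36.8% and 27.4%), 15 and 18 at 120 min (33.5% and 28.7%) and 8 and 19 in asynchronous cells (29.8% and 22.4%). The number lower was 1 at 50 min (5.37% of all genes), 1 at 90 min (4.41% of genes), 3 at 120 min (4.42% of genes) and 9 in asynchronous cells (5.89%).

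Whether IAA changed member levels was tested stage by stage between the arms, with an adjusted p under 0.1 and a log2 difference beyond 0.2. The main fit left out the pairing of same-numbered libraries, and counts with that pairing as a block differ. Of the 44 members, Psmd6 alone was called by the combined rule, which asks for a call in asynchronous cells or in the same direction at 2 or more times after release, against 1.1% of all genes. Limma called 0 members and 0% of genes in mitosis, at 20 min and at 40 min, with 0, 0 and 2 members at an unadjusted p under 0.05. It called 1 member at 50 min (0.283% of all genes), 0 at 60 min (0.225%, 1 member at an unadjusted p under 0.05), 1 at 90 min (0.733%), 1 at 120 min (0.586%) and 1 in asynchronous cells (1.01%). Without replicate 1 the combined count was 0 (0% of all genes) and without replicate 3 also 0 (0.537%), and with the replicate number as a block it was 2 (2.63%), with Psmb10 as the other member. None of the 22 other pathway genes was called by the combined rule. In the mean over 20 to 120 min 1 of them was called lower with IAA, Ubqln4, a shuttle factor, at -0.44 (SE 0.07, adjusted p = 3.7e-04). Its difference was -0.68 at 90 min (adjusted p = 0.124) and -0.52 in asynchronous cells (adjusted p = 0.146). The share of all genes called in the mean over 20 to 120 min is not given here.

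Psmd6 encodes a lid subunit and lies on the minus strand at chr14:14112174-14120984 (GRCm38). Without IAA it measured 2.33, 1.95 and 2.85 TPM in mitosis, 2.58 and 2.04 at 20 min, 3.45 and 2.80 at 40 min, 4.59 and 4.47 at 50 min, 4.90 and 3.94 at 60 min, 4.14 and 4.87 at 90 min and 3.88 and 3.47 TPM at 120 min. With IAA it measured 2.13, 1.89 and 2.43 TPM in mitosis, 2.19 and 1.66 at 20 min, 1.91 and 1.81 at 40 min, 2.34 and 2.1 at 50 min, 2.45 and 2.76 at 60 min, 2.00 and 2.53 at 90 min and 1.96 and 2.26 TPM at 120 min. Asynchronous cells measured 2.45, 2.56 and 2.91 TPM without and 1.20, 1.64 and 1.57 TPM with IAA. The arms overlapped in mitosis and at 20 min, and every IAA library lay below every library without IAA at 40 min and later and in asynchronous cells.

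The log2 difference of Psmd6 with IAA was -0.10 in mitosis, -0.18 at 20 min, -0.52 at 40 min (adjusted p = 1), -0.78 at 50 min (adjusted p = 0.0117), -0.59 at 60 min (adjusted p = 0.136), -0.76 at 90 min (adjusted p = 0.00505), -0.59 at 120 min (adjusted p = 0.0621) and -0.56 in asynchronous cells (adjusted p = 0.00775), with an SE of 0.14 at the times after release and 0.12 in mitotic and asynchronous cells. The mean over 20 to 120 min was -0.57 (SE 0.06, adjusted p = 2.2e-07). Without replicate 1 that mean was -0.50 with an adjusted p of 0.308, and over the other alternatives the adjusted p lay between 2.1e-09 and 2.8e-04. In asynchronous cells the call was lost without replicate 1 and without replicate 3. At 50, 90 and 120 min leaving out either replicate left 1 library per arm, so the spread came from other groups. The call was lost in each of these fits, although Psmd6 was lower with IAA in every single pair at those times. At 50 min the levels without and with IAA were 4.59 and 2.34 TPM in replicate 1 and 4.47 and 2.1 TPM in replicate 3. The call was also lost with each library divided by its step, at 50 min (adjusted p = 0.15) and at 120 min (adjusted p = 0.701), and with a pseudocount of 0.1 at 120 min (adjusted p = 0.101). With the replicate number as a block the difference at 60 min was called (adjusted p = 0.00527, range over all alternatives 0.00527 to 1).

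Against mitosis, Psmd6 without IAA rose by 0.74 (SE 0.10, adjusted p = 5.4e-07) at 60 min, and with IAA by 0.25 (SE 0.10, adjusted p = 0.0294). The difference between those rises, -0.49 (SE 0.18), was not called, and limma called 0 members and 0% of genes on that test, with 1 member at an unadjusted p under 0.05. In CCNA-GFP Psmd6 rose by 0.93 at 60 min. With every library set to the same total the changes of Psmd6 from mitosis to 60 min were -0.07 in CCNA-GFP and -0.01 in CTCF-AID without IAA, while the difference with IAA at 60 min was -0.53 and was called.

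**Figure D4:**
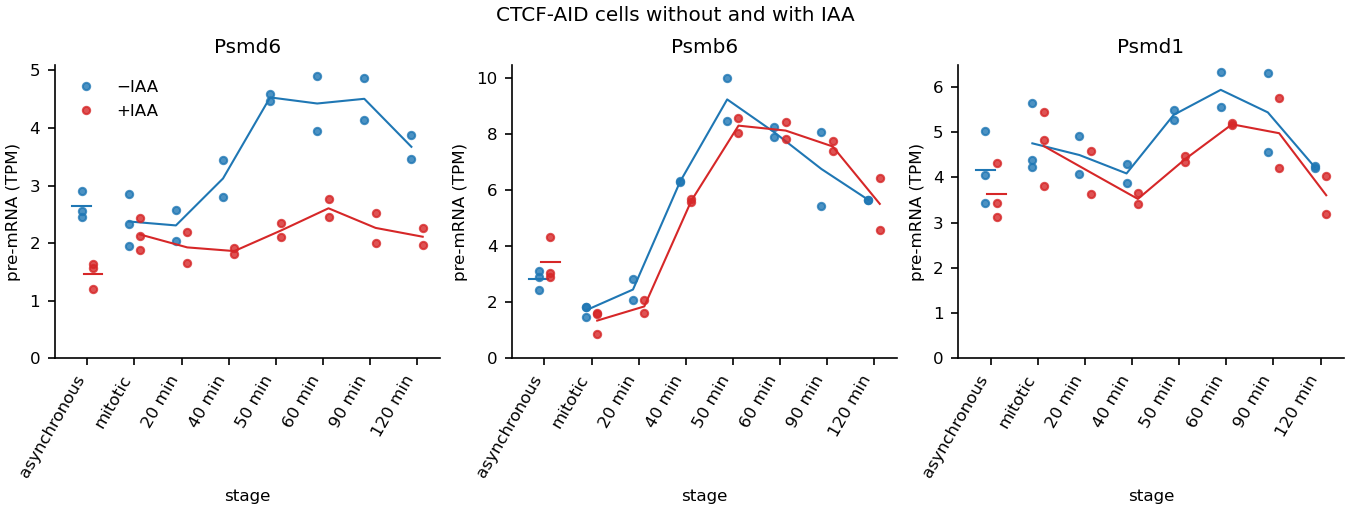
Pre-mRNA level (TPM) of Psmd6, Psmb6 and Psmd1 by stage in CTCF-AID cells without IAA (blue) and with IAA (red); each point is a library, lines join means from mitosis on and short bars mark asynchronous means. For Psmd6 the arms separate from 40 min, with 4.59 and 4.47 TPM without and 2.34 and 2.1 TPM with IAA at 50 min.

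The stretches before the starts of Psmd6 and Psmd14 are shown because they hold CCCTNNTGG, a short form of the CTCF binding motif, in capitals. The match lies on the minus strand of the gene, beginning 85 bases before the start of Psmd6 and 140 bases before that of Psmd14. The Psmd6 stretch is chr14:14120985-14121065 on the minus strand and the Psmd14 stretch chr2:61711534-61711614 on the plus strand.
Psmd6: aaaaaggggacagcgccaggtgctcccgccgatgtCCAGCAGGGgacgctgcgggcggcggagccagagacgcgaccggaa
Psmd14: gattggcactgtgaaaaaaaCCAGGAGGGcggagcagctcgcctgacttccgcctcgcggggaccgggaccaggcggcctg
Searched on both strands, CCCTNNTGG was present in these 2 of 37 member windows, 5.41%, against 6.78% of all genes with a window. Psmd14, with such a match, was not called with IAA. A longer core of the CTCF motif was present in 8 of the 37, or 21.6%, against 9.84% of all genes, and not in the Psmd6 window. Of the other motifs searched, CCAAT was present in 14 of the 37 (37.8%, against 41.1% of all genes), the ETS core GGAAGTG in 7 (18.9%, against 12.5%) and the E-box CACGTG in 3 (8.11%, against 8.09%). The cores of nuclear respiratory factor 1 and of YY1 were each present in 2 of the 37 (5.41%), against 1.95% and 1.64% of all genes. Shares of all genes for these motifs are over every gene with a window, listed in these data or not. A match is a description of the letters and no evidence of binding.

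At 40 min and later and in asynchronous cells the fitted differences of the remaining members with IAA were smaller than that of Psmd6. In mitosis and at 20 min those of several members were larger, led by Psmb6 at -0.22 and -0.27, and none was called. At 20 min 41 of the 44 members lay below 0, 35 of them in both replicate pairs, with a median of -0.11 against -0.06 over all genes. With every library set to the same total 30 lay below 0, with a median of -0.02 against -1.7e-05 over all genes. At 40 min 24 were lower in both pairs, with a median of -0.06 against -0.05 over all genes. The shares of all genes below 0 or lower in both pairs are not given here. Over 20 to 120 min the median member difference was -0.02, and -0.02 over all genes. After Psmd6 the lowest were Psmd1 at -0.16 (SE 0.07, adjusted p = 0.855) and Psme4 at -0.10 (SE 0.08), and the highest were Psma7 at 0.05, Psmd5 at 0.02 and Psma5 at 0.02. Psmb10 measured 0.82, 1.04 and 1.17 TPM in asynchronous cells without and 0.51, 0.56 and 0.70 TPM with IAA, without overlap. That difference of -0.34 (adjusted p = 0.445) was not called in the fit without a block. With the replicate block it was called (SE 0.09, adjusted p = 0.0396, range over all alternatives 0.0396 to 1).

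**Figure D5:**
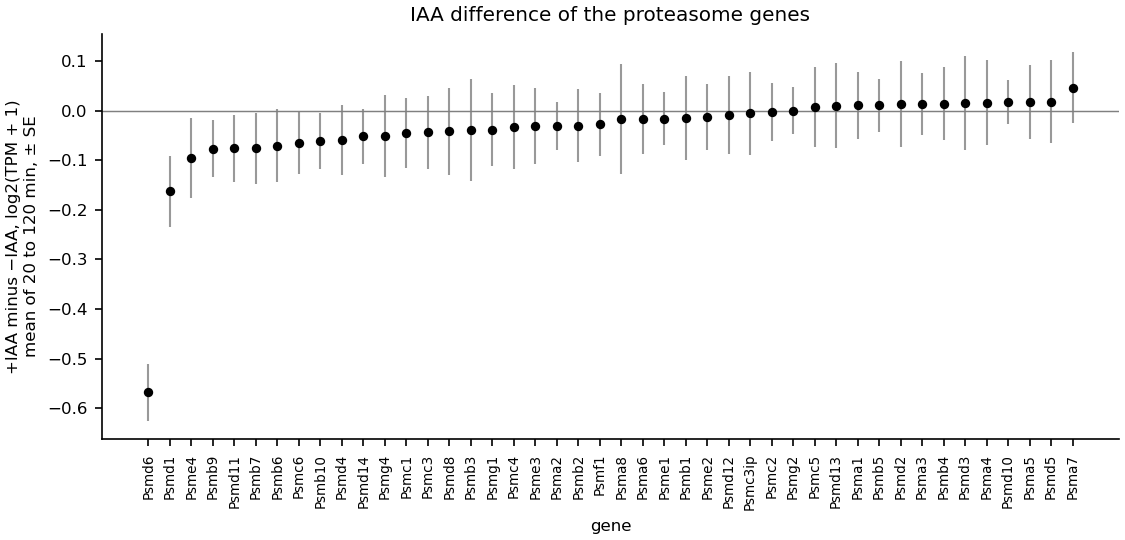
Fitted difference with minus without IAA in log2(TPM + 1), mean of 20 to 120 min, for each of the 44 members in order; bars are SE. Psmd6 (-0.57) stands apart from Psmd1 (-0.16), and the other members lie between -0.10 and 0.05.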

How the data were processed

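The deposited files hold pre-mRNA TPM per gene and library; per the study's methods the authors used STAR (mm10) and RSEM, with a Gencode annotation holding an added pre-mRNA isoform per gene, and kept genes above a mean level in asynchronous or post-mitotic samples. This keeps genes that are high in some stage. In asynchronous cells Psmb10, Psmd10 and Psme2 in CCNA-GFP, and Psmb9 and Psmd10 in CTCF-AID, lay below that level. They were listed through their levels after release, so their rise over mitosis is no independent result. Low TPM values are whole multiples of a per-library step (100% within 0.02), the origin of which is not given in the sources used here. Over all listed genes the level did not rise with gene length (slope of log10 level on log10 length -0.0696 in CCNA-GFP and -0.0516 in CTCF-AID), and between replicates at 10 to 60 steps genes under 5 kb varied more than genes of 20 to 60 kb in 24 of 24 groups, so a step was not read as 1 sequenced read. Read counts were not used here.

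The members and lists were chosen with earlier results of these data known. Named were the catalytic and immunoproteasome subunits, Psmc3ip, the largest and smallest changes overall and per role, the extremes of asynchronous level and of IAA difference, and any IAA call; Psmd3, Psmd4, Psmg1, Psmc6, Nfe2l1 and Pomp were added after their values were seen. Some pathway genes that this rule names are not reported here.

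limma 3.58.1 (R 4.3.3) was fitted to log2(TPM + 1) of all listed genes, two-sided, with Benjamini-Hochberg adjustment within each comparison. Fold changes on this scale understate those of low genes, and rankings of changes are rankings on this scale only. Tests against mitosis used the replicate number as a block, as the study took changes within replicates. The main tests of IAA did not, so they leave out the pairing of the arms by replicate number. The IAA fit with that block is among the alternatives. Replicates are 3 independent experiments per the methods. Same-numbered libraries deviated together: the correlation was over 0.1 in 41 of 41 pairs of CCNA-GFP stages (0.24 to 0.80) and in 18 of 18 pairs of CTCF-AID arms at the same stage (0.51 to 0.88). The CCNA-GFP 50 min library received no call. No libraries were duplicates (Spearman 0.918 to 0.984). The alternatives were a pseudocount of 0.1, a minimum mean of 1 TPM, equal totals, division by the step, the other choice of block, and leaving out each replicate. Lengths and positions came from the GRCm38 annotation, which matched 9900 of 9911 and 10225 of 10237 symbols. The scripts were tested on simulated data. Plots were drawn in matplotlib 3.10.9 under Python 3.11.15, with pandas 2.3.3 and numpy 2.4.6 for tables.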

Additional observations from a re-analysis of the deposited data

Results flagged for a closer look

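Some members moved one way in every replicate pair of CCNA-GFP and the other way in every pair of CTCF-AID without IAA, relative to mitosis. The difference between the lines was not tested, because their tables were scaled separately. There were 3 such members at 20 min (Psmb10, Psme2 and Psmg1), 2 at 40 min (Psmd1 and Psmd11), 1 at 60 min (Psmg2), 2 at 90 min (Psmc2 and Psmc6) and 4 at 120 min (Psma8, Psmc2, Psmc6 and Psmd11). Over all 9574 genes listed in both lines the shares that did so were 4.54%, 3.29%, 1.31%, 4.29% and 4.55% at those times and 7.19% in asynchronous cells. In asynchronous cells there were 12 members: Psma1, Psma5, Psmb2, Psmb3, Psmc2, Psmc6, Psmd1, Psmd11, Psmd3, Psmd4, Psmd5 and Psme4. All 12 were higher than in mitosis in CCNA-GFP and lower in CTCF-AID on the deposited scale. With equal totals 3 members did so in asynchronous cells (3.44% of all genes), Psma3, Psma5 and Psma6, and with each library divided by its step 1 did (0.585%), Psma1. With equal totals 2 of the 3 members at 20 min and none of those at 40 to 120 min did so, and the counts over the times from 20 to 120 min became 6, 5, 3, 6 and 8 (7.19%, 4.06%, 5.33%, 12.9% and 9.33% of all genes). With each library divided by its step those counts were 4, 3, 1, 2 and 9 (4.51%, 7.98%, 1.01%, 4.66% and 8.06% of all genes). The mean change of Psmc2, for example, was 0.22 in CCNA-GFP and -0.40 in CTCF-AID, and that of Psmb3 was 0.41 and -0.26. At 120 min Psmc2 changed by 0.58 and -0.33.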

How the results depend on the processing

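With every library set to the same total, the number of members higher than in mitosis in CCNA-GFP was 12, 21, 19 and 20 over the times from 40 to 120 min and 8 for asynchronous cells, and the member medians were 0.072 (40 min) and 0.14 (60 min). In CTCF-AID without IAA the number was 19, 22, 18, 13 and 13 over the times from 40 to 120 min, and with IAA 17, 22, 20, 16 and 15. Members lower at 120 than at 60 min then numbered 10 and 21 in CCNA-GFP and CTCF-AID, members above asynchronous cells at 60 min 21 and 26, and 1 member was changed by IAA at 60 min. The sum ratios at 60 min became 1.16, 1.01 and 1.05. Members below 0 at 60 min then numbered 13 in CCNA-GFP and 20 in CTCF-AID without IAA, of which 9 and 16 were called lower. Among the members whose changes were followed under each setting in that line, the change at 60 min reversed in CCNA-GFP for Psmg2 (-0.70), Psmg4 (-0.40), Psmf1 (-0.42), Psmd14 (-0.52), Psme4 (-0.56), Psmd1 (-0.32) and Psmd6 (-0.073), and in CTCF-AID, where fewer members were followed, for Psmd6 (-0.0067). Dividing by the step gave 3 members at 30 min, and 22 (66% of all genes) and 23 in asynchronous CTCF-AID cells without and with IAA. It gave 0 changed by IAA at 50 and at 120 min, and 3 lower at 120 than at 60 min in CCNA-GFP (13.9% of all genes). The median of all genes then moved from 0.08 to 0.18 at 30 min in CCNA-GFP, and from 0.15 to 0.29 in asynchronous cells with IAA. A minimum mean of 1 TPM gave 1 at 30 min and 5 in asynchronous cells without IAA. A pseudocount of 0.1 gave 1 at 30 min and 0 changed by IAA at 120 min. Shares of all genes for the other counts under step division, the minimum mean and this pseudocount are not given.

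With no replicate block, the members higher than in mitosis numbered 12 at 40 min and 18 in asynchronous cells in CCNA-GFP, 22 (40 min), 16 (120 min) and 4 (asynchronous) without IAA, and 21 (40 min) and 5 (asynchronous) with IAA; 2 were lower at 120 than at 60 min in CCNA-GFP. With a replicate block on the IAA test, 1 member was called at 60 min, 2 in asynchronous cells and 2 combined (2.63% of all genes). The shares of all genes under that block at 60 min and in asynchronous cells are not given. Among counts of members higher than in mitosis, the block changed no other by over 1.5 times. Without the block, fewer members were lower than in mitosis at 40 and 120 min and in asynchronous cells without IAA.

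Leaving out each replicate in turn gave 0 to 2 members at 30 min, 15 to 28 at 40 min, 20 to 32 in asynchronous cells and 1 to 14 lower at 120 than at 60 min in CCNA-GFP, 21 to 33 at 90 min and 5 to 9 in asynchronous cells without IAA, 17 to 34 at 120 min and 6 to 11 in asynchronous cells with IAA, and 0 to 1 changed by IAA at 50, 90 and 120 min, in asynchronous cells and combined. Counts with a replicate left out that stand with the results above carry their share of all genes. Shares for the rest of these ranges are not given, so whether the members moved differently from all genes there was not tested. The change at 60 min ranged from -0.047 to 0.069 for Psma8 in CCNA-GFP and from -0.073 to 0.035 for Psmg2 without IAA. Where a setting lost or gained a call, the cause was not tested. The number of reads behind low members such as Psmb9 and Psmd10 is unknown, and in mitosis their values lie few steps above 0.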
